A study of Rattus norvegicus with 6 samples.

Results

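REST (repressor element 1-silencing transcription factor) sites next to neuronal cytoskeleton and axonal transport genes were compared between quiescent and proliferating neural stem cells. The members were chosen by gene name: a site belonged when the gene with the nearest annotated transcription start site (TSS) began with the name of a tubulin, neurofilament, stathmin, microtubule-associated protein, doublecortin, kinesin, dynein, myosin, ankyrin or spectrin family, or was alpha-internexin (Ina). This gave 35 of 1775 REST sites in the quiescent condition, next to 27 genes, and 17 of 778 sites in the proliferating condition, next to 14 genes. A further 17 and 7 sites carried no gene name, and the rule could not be applied to them. The name rule also took in genes that are no cytoskeleton genes. Sptlc3 and Sptssb belong to serine palmitoyltransferase, Myoc encodes myocilin, and Map1lc3b is an autophagy gene. Myom2 and Myoz1 encode muscle sarcomere proteins. No site was assigned to an alpha-tubulin gene, Mapt, Map6, Map7, Prph, a gene whose name begins with Dpysl, Gap43, Ank2, Ank3 or a spectrin gene.

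HCN cells are a line of hippocampal neural stem cells from the adult rat brain, used after multiple passages. They were grown as a monolayer in FGF2 with BMP4, which makes them quiescent (induced quiescent neural progenitors, iQNP), or in FGF alone, in which they proliferate (transit-amplifying progenitors, TAP). Each condition had 2 REST chromatin immunoprecipitation (ChIP) libraries and 1 input DNA library. The first ChIP library of each condition was made with a commercial REST antibody (Millipore) and the second with a mix of homemade antibodies (REST14 and REST17). The libraries therefore differed by antibody, and no source used here says that they came from separate cultures, so p-values measure only the spread between these libraries, which may be technical. The deposited site lists held only sites called with both antibodies. Depth worked back from the tag counts was 28.3 and 29.8 times 1000000 tags in iQNP, and 25.7 and 25.2 times 1000000 tags in TAP.

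REST binds a DNA element near many genes that neurons use and recruits corepressors, so that cells outside the neuronal lineage keep these genes silent. Genes of the neuronal cytoskeleton are among its well-known targets. Tubulins polymerise into microtubules, stathmins and microtubule-associated proteins set how readily microtubules grow and how stable they are, and kinesins and dynein walk along them with cargo in opposite directions. Neurofilaments and alpha-internexin form the intermediate filaments that fill and widen axons.

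Promoter sequence is given for Stmn3 and Tubgcp5, whose sites began within 50 bases after the TSS. They are shown because they differed in pairing: the Stmn3 site had a TAP partner and the Tubgcp5 site had none. The windows hold 250 bases before the start and 50 bases after it (RefSeq, build GRCr8), with the bases after the start in capitals. In the older build of the site lists (rn4), the Stmn3 site covered +37 to +90 from the start and the Tubgcp5 site covered +23 to +89, so both sites ran past the end of the window.
Stmn3, GRCr8 chr3:188802445-188802744, minus strand: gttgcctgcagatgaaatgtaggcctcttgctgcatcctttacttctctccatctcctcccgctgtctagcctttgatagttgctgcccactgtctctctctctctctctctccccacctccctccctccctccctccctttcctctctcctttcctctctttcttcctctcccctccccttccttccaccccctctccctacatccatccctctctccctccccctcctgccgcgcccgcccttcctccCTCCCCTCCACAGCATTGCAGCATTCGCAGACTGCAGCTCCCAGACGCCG
Tubgcp5, GRCr8 chr1:115772044-115772343, plus strand: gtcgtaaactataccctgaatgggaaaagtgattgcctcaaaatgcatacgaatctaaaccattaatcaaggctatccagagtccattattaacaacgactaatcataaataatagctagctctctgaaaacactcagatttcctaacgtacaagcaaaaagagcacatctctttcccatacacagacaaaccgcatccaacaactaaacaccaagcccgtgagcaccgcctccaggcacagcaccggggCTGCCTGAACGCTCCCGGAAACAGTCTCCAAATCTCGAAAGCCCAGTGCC
The transcript that the site list names for Stmn3 was not among the RefSeq transcripts of the gene in GRCr8, so its start may not be the same base. For Tubgcp5 it was.

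Sequence windows of the same kind were found for 18 of the 27 genes. The letters CAGCACC, from the left part of the REST element, occurred on either strand in 3 of the 18 (Dync1i1, Tubb3 and Tubgcp5) and in 6.78% of 33469 rat promoters. In the Tubgcp5 window they began 11 bases before the start. The letters GGACAG, from the right part of the element, occurred in 3 of the 18 (Dync1h1, Dync1i1 and Tubb3) and in 21.7% of all promoters. Both in order with 2 bases between them occurred in none of the 18 and in 0.0299% of all promoters. The letters in the Tubgcp5 window lie outside its site, and the sites of the other genes named here lay outside these windows, so the letters describe the promoters and not the bound sequence.

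The question was where REST sat near these genes and how its signal compared between quiescence and proliferation. The signal was the normalized tag number, scaled to 10000000 tags in a library. Over the 35 iQNP sites, the median was 20.7 normalized tags (mean of both antibodies, range 5.88 to 43.4), against 17.9 over all iQNP sites. Over the 17 TAP sites it was 18.3 (8.25 to 26.8), against 12.6 over all TAP sites. The members' medians thus lay above those of all sites, although 16 of the 35 iQNP sites lay below the median of all iQNP sites, and their highest values were far below the strongest sites of the series at 542 and 253 normalized tags.

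All 17 TAP sites had an iQNP site within 50 bp of their centre, where 97.2% of all TAP sites did. In the other direction, 17 of 35 iQNP sites had a TAP partner, or 48.6% (95% Wilson interval 33.0 to 64.4), against 42.6% of all iQNP sites. The share of all sites, which include the members, lay inside this interval. The interval counts the 35 sites as independent, although 8 of the 27 genes had several, so it is a description only. The paired centres lay 0.5 to 33.5 bp apart (median 11 bp; 12 bp over all pairs). The remaining 18 sites had their nearest TAP site at least 11847 bp away, so no member was unpaired by a narrow margin. A site absent from the TAP list had not passed the call with both antibodies, and its tags in TAP were not listed, so it cannot be read as unbound.

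Pairing followed the iQNP signal. Paired members had a median of 28.8 normalized tags in iQNP (15.9 to 43.4) and unpaired members a median of 13.6 (5.88 to 33.7), close to the 28.2 and 11.4 of all paired and unpaired sites. Of the 19 members above the median of all iQNP sites, 15 had a TAP partner (78.9%; 74.3% of all sites above it). Of the 16 below, 2 had one (12.5%; 11.2% of all sites below it).

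**Figure D1:**
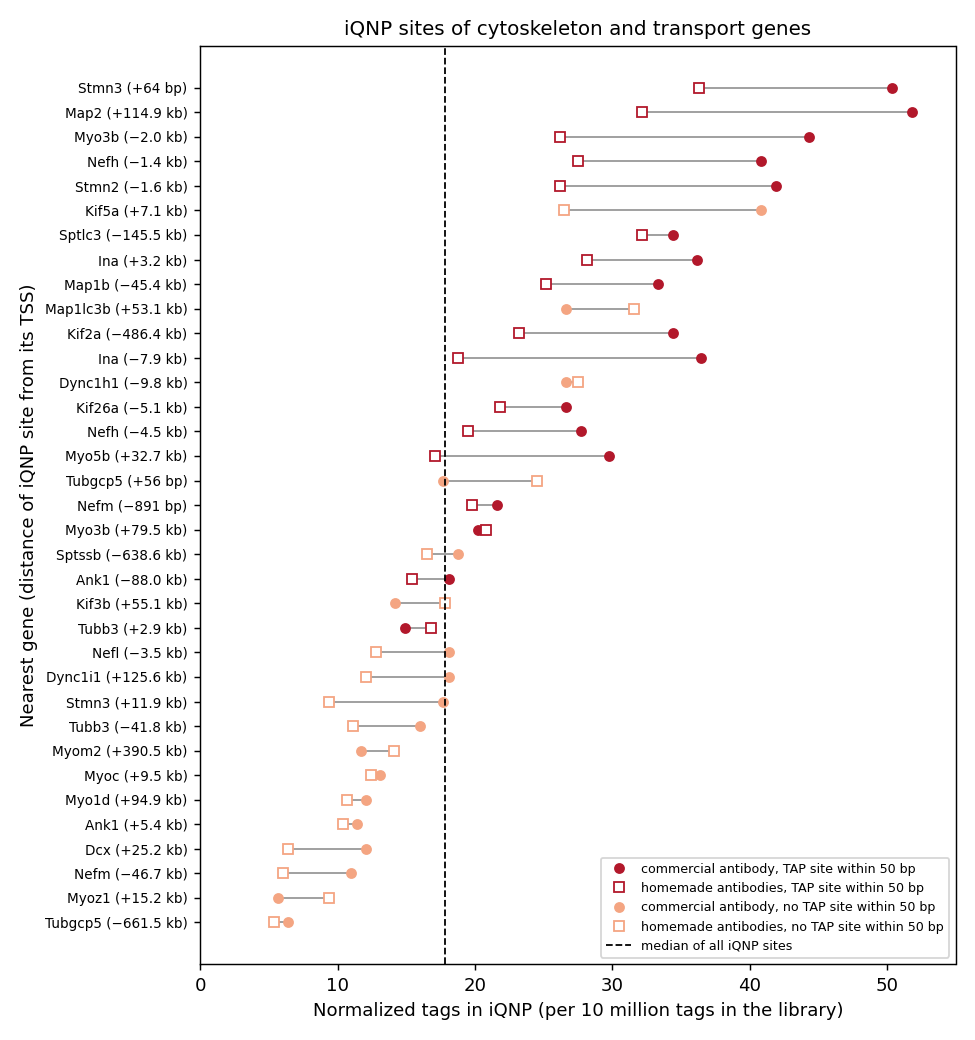
Normalized tags (per 10000000 tags, x axis) of the 35 iQNP sites, named by nearest gene and distance from its TSS (y axis), with 1 point per antibody joined by a line. Dark points have a TAP site within 50 bp, pale points have none, and the dashed line is the median of all iQNP sites, 17.9. Kif5a, Map1lc3b and Dync1h1 are the pale sites highest in the order.

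Stathmins held the member with the most tags. Stathmin-like proteins bind tubulin dimers, and Stmn2 and Stmn3 are neuronal forms, enriched in growth cones. The Stmn3 promoter-TSS site, 64 bp after the start (rn4 chr3:170454809-170454862), had 50.4 normalized tags by the commercial antibody and 36.3 by the homemade mix in iQNP, against 20.2 and 19.5 in TAP. Values for the other sites follow in this order of antibodies. Both iQNP libraries lay above both TAP libraries, at 2.18 times the TAP mean. Its log2 change from TAP to iQNP was 1.12 ± 0.42 (SE, n = 2 libraries per condition, edgeR adjusted p = 0.0164), and 0.066 after TMM normalization, a scaling that sets the typical shared site to no change.

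A second Stmn3 site, 11.9 kb after the start in an LTR repeat (chr3:170442945-170442998), had 17.7 and 9.40 normalized tags in iQNP and no TAP partner. The site 1.6 kb upstream of Stmn2 (chr2:95334254-95334309) had 41.9 and 26.2 normalized tags in iQNP, against 18.7 and 17.9 in TAP. The libraries of the conditions did not overlap, and the log2 change was 0.89 ± 0.41 (SE, edgeR adjusted p = 0.0425), or -0.17 under TMM. Without the iQNP library of the commercial antibody it was 0.52 and no longer passed (edgeR adjusted p = 0.145).

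Intermediate filament genes had the most sites of any group, 7 next to 4 genes, of which 5 were paired (42.6% of all iQNP sites). Nefh, Nefm and Nefl encode the heavy, medium and light neurofilament subunits, and Ina a neuronal subunit made early in development. Of the 7 sites, 6 lay within 10 kb of the TSS. The log2 ratios of iQNP to TAP normalized tags at the 5 paired sites were 0.34 to 0.99 (median 0.53). Of the 5, 1 passed the test, against 68.4% of all shared sites. With the antibody as a block 4 of the 5 passed, against 94.8% of all shared sites.

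The Nefm promoter-TSS site, 891 bp upstream (chr15:47704206-47704258), had 21.6 and 19.8 normalized tags in iQNP, compared with 9.33 and 11.5 in TAP. Here the conditions were fully apart, with a log2 change of 0.99 ± 0.39 (SE, edgeR adjusted p = 0.0213; -0.060 under TMM). It was the intermediate filament site that passed without the antibody as a block.

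At the Nefh site 1.4 kb upstream (chr14:85606111-85606197), iQNP had 40.8 and 27.5 normalized tags and TAP had 29.2 and 19.1. Each antibody gave more in iQNP, but the TAP library with the commercial antibody lay above the iQNP library with the homemade mix. Its log2 change of 0.50 ± 0.41 did not pass (edgeR adjusted p = 0.240). The other Nefh site, 3.13 kb away (chr14:85609258-85609317), had 27.7 and 19.5 normalized tags in iQNP, compared with 17.5 and 19.9 in TAP. The homemade antibodies gave nearly the same value in both conditions, and the log2 change of 0.34 ± 0.39 was the smallest among the members (edgeR adjusted p = 0.388).

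The Nefh sites went the other way on another scale. Fold over input, the tags of a site over those of the condition's input library, was 60.9 and 41.1 in iQNP but 166 and 108 in TAP at the first site. The input there was 1.9 and 2 tags in iQNP but 0.5 and 0.4 in TAP. The lowest input at any TAP site was 0.4, so these TAP folds rest on an input near the floor. At the second it was 16.7 and 11.6 in iQNP, compared with 24.9 and 28.2 in TAP. Under TMM, these 2 sites had log2 changes of -0.56 (edgeR adjusted p = 0.0286) and -0.71 (edgeR adjusted p = 0.0127), the only members past the threshold under that scaling. None of the members passed it upwards, where 5.16% of all shared sites were called higher in iQNP and 6.75% higher in TAP.

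Ina also had a pair of sites, 11.1 kb apart on either side of its start and both found in TAP. The site in intron 1 of 2 (chr1:252331321-252331385) had 36.2 and 28.2 normalized tags in iQNP, compared with 20.6 and 18.7 in TAP, with no overlap (log2 change 0.71 ± 0.40, edgeR adjusted p = 0.0959). The upstream site (chr1:252320244-252320299) had 36.5 and 18.8 in iQNP and 19.1 with either antibody in TAP. There the homemade antibodies showed no excess in iQNP, and the log2 change was 0.54 ± 0.40 (edgeR adjusted p = 0.188).

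The site 3.5 kb upstream of Nefl (chr15:47632822-47632877) had 18.1 and 12.8 normalized tags in iQNP and no TAP partner. It lay 71.4 kb from the Nefm promoter site, with no other iQNP site between them. A further site 46.7 kb upstream of Nefm had 11 and 6.04 normalized tags and no partner either. The Nefm promoter site was thus the one found in TAP at the Nefl and Nefm locus.

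Of the tubulins, Tubb3, which encodes the neuron-specific beta-tubulin widely used as a marker of new neurons, had sites in both conditions. In intron 1 of 3 (chr19:53745553-53745617), 2.9 kb after the start, 14.9 and 16.8 normalized tags were counted in iQNP, compared with 8.94 and 9.53 in TAP. Neither condition's libraries reached the other's. The log2 change was 0.77 ± 0.38 (SE, edgeR adjusted p = 0.0566) and 0.77 with the antibody as a block (edgeR adjusted p = 0.00936), and -0.27 under TMM. In iQNP this site was at the 44.5th percentile of all sites, and in TAP at the 24.0th. The other Tubb3 site lay 41.8 kb upstream in a CpG island (chr19:53700801-53700866), with 16 and 11.1 normalized tags and no TAP partner.

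Tubgcp5 encodes a protein of the gamma-tubulin ring complex, from which microtubules grow. Its promoter site (chr1:107171422-107171488), the one whose sequence is given above, had 17.7 normalized tags by the commercial antibody and 24.5 by the homemade mix, and no TAP partner. The other site named for it lay 661 kb upstream and was the weakest member, at 6.39 and 5.37.

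Microtubule-associated proteins were represented by Map2, Map1b and Dcx. MAP2 marks dendrites, MAP1B is abundant in growing axons, and doublecortin is made by migrating young neurons. The Map2 site (chr9:65289258-65289321), in a CpG island 115 kb from the start, had 51.8 and 32.2 normalized tags in iQNP, compared with 24.1 and 29.4 in TAP. It was the strongest member in TAP, and the antibodies differed in how much iQNP exceeded TAP, by log2 ratios of 1.10 and 0.13. The log2 change was 0.65 ± 0.42 (SE, edgeR adjusted p = 0.139), with the block 0.63 (edgeR adjusted p = 0.00143), and -0.41 under TMM.

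Map1b had a site 45.4 kb upstream (chr2:30553724-30553788), with 33.3 and 25.2 normalized tags in iQNP, compared with 17.9 and 15.5 in TAP. Its libraries were apart by condition (log2 change 0.80 ± 0.40, edgeR adjusted p = 0.0597). Dcx had a weak site in intron 3 of 6 (chrX:34619586-34619666), with 12.1 and 6.38 normalized tags, 34 and 19 tags in all, and no TAP partner.

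**Figure D2:**
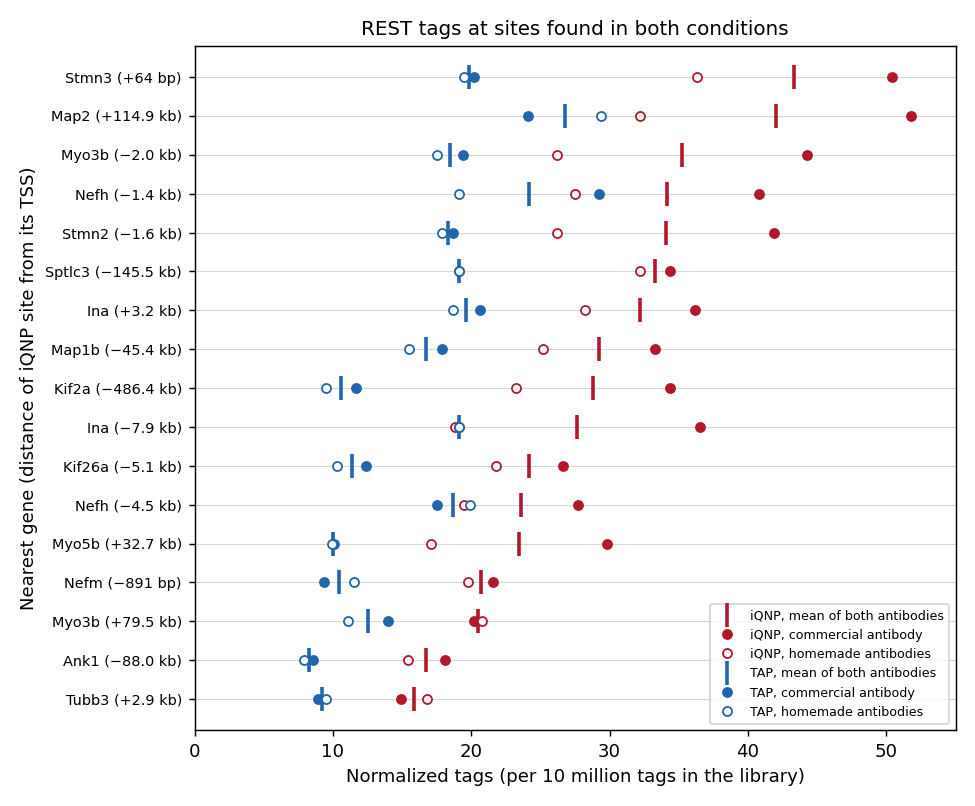
Normalized tags (per 10000000 tags, x axis) of the 17 paired sites (y axis) in each of the 4 libraries, with filled points for the commercial antibody, open points for the homemade mix and bars for the mean. iQNP and TAP points are apart at 14 sites and overlap at both Nefh sites and the upstream Ina site.

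Motor protein genes gave 6 sites next to 6 genes, and 2 of the sites were paired, against 42.6% of all iQNP sites. The site named for Kif2a, a microtubule-depolymerising kinesin, lay 486 kb upstream in an LTR repeat (chr2:38629845-38629917). It had 34.4 and 23.2 normalized tags in iQNP, compared with 11.7 and 9.53 in TAP, a 2.71-fold difference and the largest of the members. The libraries did not overlap, and the log2 change was 1.43 ± 0.40 (SE, edgeR adjusted p = 0.00191), or 0.38 under TMM. By fold over input the site was higher in TAP, at 16.6 and 13.5 against 14.7 and 11.5 in iQNP. Its input was 6.6 and 6 tags in iQNP and 1.8 with either antibody in TAP. At that distance the assignment to Kif2a rests on the nearest TSS alone.

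The site 5.1 kb upstream of Kif26a (chr6:136942247-136942304) had 26.6 and 21.8 normalized tags in iQNP, compared with 12.4 and 10.3 in TAP. Both antibodies gave nearly the same log2 ratio, 1.10 and 1.08, and the log2 change passed the test (1.08 ± 0.39, edgeR adjusted p = 0.0129; 0.032 under TMM).

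Kif5a encodes a neuron-enriched heavy chain of conventional kinesin. The site in its intron 1 of 28 (chr7:67213669-67213734) had 40.8 and 26.5 normalized tags in iQNP, the highest mean of the unpaired members, and no TAP partner. By the homemade mix alone, the unpaired Map1lc3b (31.6) and Dync1h1 (27.5) sites were higher. Of all 303 iQNP sites with at least as many tags, 86.8% had a partner. Its input was 9.4 and 10 tags, against a median of 2.9 over the members, and its fold over input was 12.3 and 7.92, against a median of 25.1 over the members. The promoter site of Dctn2, a dynactin subunit gene, lay 10.1 kb away with 37.6 and 37.9 normalized tags and was likewise without a TAP partner.

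The site 9.8 kb upstream of Dync1h1, the dynein heavy chain gene, lay in a CpG island (chr6:135308299-135308360). It had 26.6 and 27.5 normalized tags and no TAP partner, where 83.4% of the 495 iQNP sites at least as strong had one. Dync1i1, for a dynein intermediate chain, had an unpaired site in intron 6 of 16 (chr4:30622003-30622096) with 18.1 and 12.1. Kif3b, for a subunit of heterotrimeric kinesin-II, had an unpaired site 55.1 kb from its start with 14.2 and 17.8. The Kif3b site had the lowest fold over input of the members, 4.24 and 5.31.

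Myosins and Ank1, an ankyrin that links spectrin to the membrane, gave 6 sites, of which 4 were paired (42.6% of all iQNP sites). Of the 4, 3 passed the test (68.4% of all shared sites), and all 4 did with the antibody as a block (94.8% of all shared sites). The largest change was in intron 3 of 38 of Myo5b, a cargo-carrying myosin (chr18:71413731-71413826). It had 29.8 and 17.1 normalized tags in iQNP, compared with 10.1 and 9.93 in TAP (log2 change 1.22 ± 0.39, edgeR adjusted p = 0.00637; 0.16 under TMM). The site 2.0 kb upstream of Myo3b (0.93 ± 0.41, edgeR adjusted p = 0.0368) and the site 88.0 kb upstream of Ank1 (1.02 ± 0.38, edgeR adjusted p = 0.0164) also passed, at -0.13 and -0.032 under TMM. Without the iQNP library of the commercial antibody the upstream Myo3b change was 0.50 and no longer passed (edgeR adjusted p = 0.158). Both lay in repeats, an LTR and an L2 element. The intronic Myo3b site was paired but did not pass (0.72 ± 0.39, edgeR adjusted p = 0.0814). The intronic Ank1 site and the Myo1d exon site were weak and unpaired, at 10.9 and 11.4 mean normalized tags.

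Of the 6 sites of genes outside the neuronal cytoskeleton, only that of Sptlc3 was paired, against 42.6% of all iQNP sites. It had 34.4 and 32.2 normalized tags in iQNP and 19.1 with either antibody in TAP. The others were found in iQNP alone, from 7.54 mean normalized tags at Myoz1 to 29.1 at Map1lc3b.

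Over the 17 paired sites, iQNP exceeded TAP by a median log2 ratio of 0.81 (range 0.34 to 1.44), a 1.75-fold excess, where the 756 shared sites had a median of 1.05. By the commercial antibody alone the members' median was 1.08, against 1.16 over all shared sites, and by the homemade mix 0.75 against 0.92. Of the 17, 13 lay below the median of the shared sites. Under TMM, which shifted all shared sites by 1.06 on the log2 scale, the members' median was -0.24. The members thus had more tags in iQNP per tag sequenced, with a smaller median excess than all shared sites by either antibody.

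Both iQNP libraries lay above both TAP libraries at 14 of the 17 sites, where 92.7% of all shared sites did so. With library sizes set to the depths, the edgeR test of total tags called 8 of 17 higher in iQNP, against 68.4% of the 756 shared sites, and none lower. At an unadjusted p under 0.05, 11 were higher (561 of all 756) and 0 lower, and DESeq2 with the depths called 8 higher (509 of all 756) and 0 lower. With the antibody as a block, 16 of 17 were called (94.8% of all shared sites), all but the weaker Nefh site (edgeR adjusted p = 0.154). With only 1 TAP library left, 0 of 17 and 0 of all 756 sites were called, while the members' median log2 change was 0.89 without the commercial and 0.82 without the homemade TAP library, against 0.80 with both. Without the iQNP homemade library, 16 were called (716 of all 756), and without the iQNP commercial library 8 (412 of all 756).

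**Figure D3:**
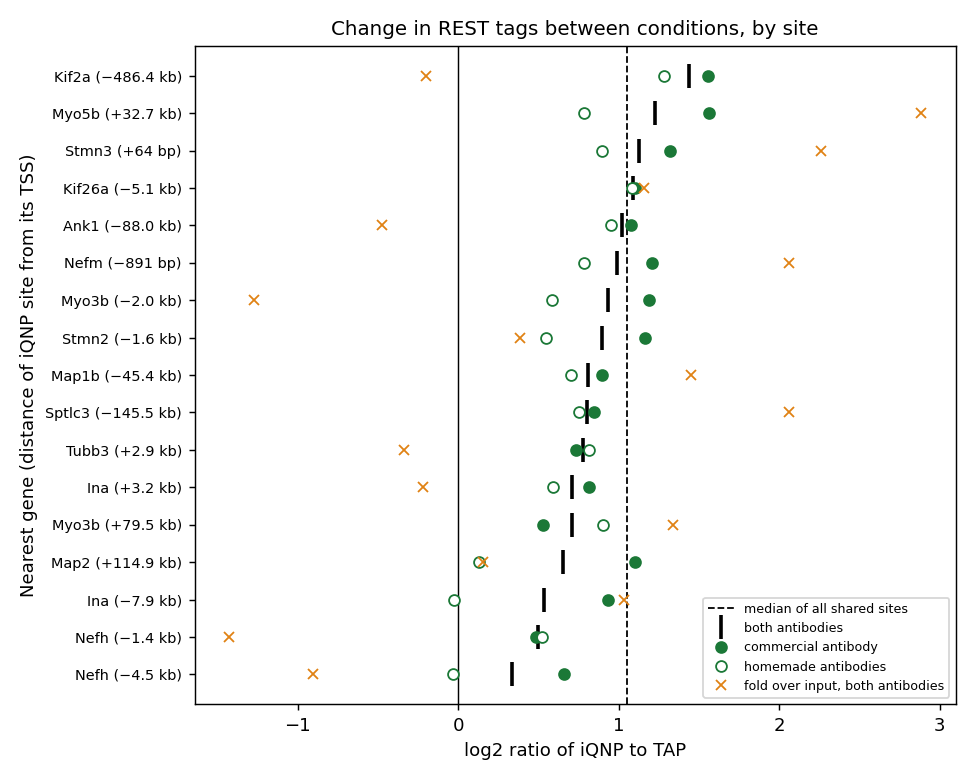
Log2 ratio of iQNP to TAP (x axis) at the 17 paired sites (y axis): bars for normalized tags over both antibodies, points for each antibody, crosses for fold over input, with the dashed line at the median of all shared sites, 1.05. Bars run from 0.34 at a Nefh site to 1.44 at Kif2a and all lie right of 0, while 7 crosses lie left of it. Under TMM, 13 of the 17 sites fall below 0, as do 382 of all 756 shared sites.

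By fold over input, the median log2 ratio of the members was 0.38 (0.81 over all shared sites), and 7 of the 17 were higher in TAP (41.2%; 25.8% of all shared sites). The 7 were both Nefh sites, the repeat sites of Myo3b and Ank1, the Kif2a site, and the intronic Tubb3 and Ina sites. Input values behind these folds were few, from 0.4 to 6.3 tags in TAP and 0.5 to 6.6 tags in iQNP, so a fold can turn on a handful of input tags.

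By median distance the sites lay closer to a TSS than the series as a whole, at 15.2 kb against 34.2 kb. Of the 35, 16 (45.7%) lay within 10 kb and 28 (80.0%) within 100 kb, against 34.6% and 67.8% of all iQNP sites. Within 1 kb the order was reversed, with 3 (8.57%) against 19.4% of all iQNP sites. Promoter-TSS sites were 3 of 35 (8.57%; 14.8% of all), those of Stmn3, Nefm and Tubgcp5. Another 22 were intergenic, 8 intronic and 2 exonic. Within 10 kb, 10 of 16 members were paired (39.3% of all sites there), and beyond 10 kb, 7 of 19 (44.4%). These shares are descriptions of small counts, and the gene families were chosen by name, not by position.

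**Figure D4:**
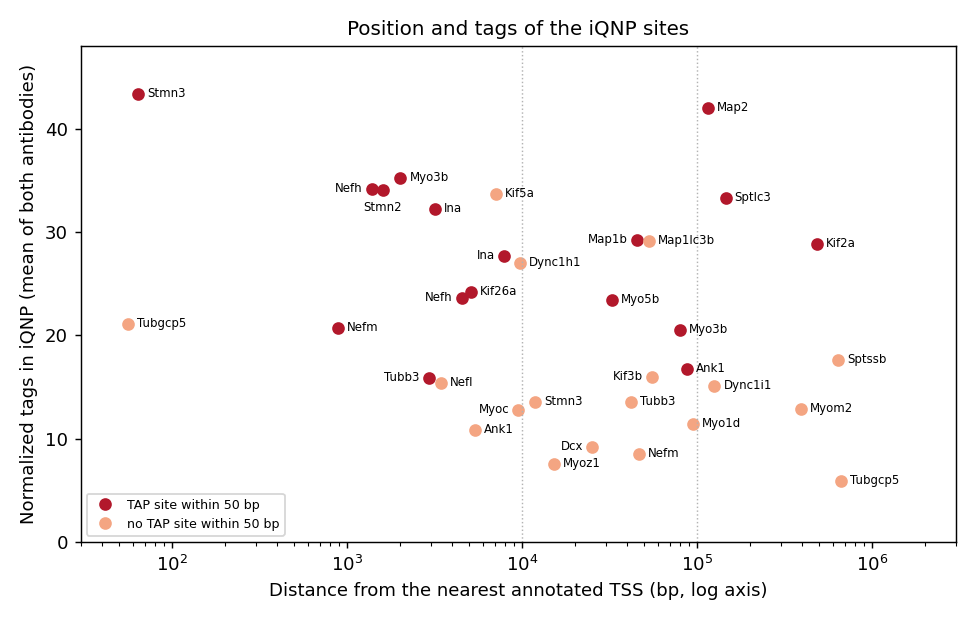
Distance of each of the 35 iQNP sites from the nearest annotated TSS (bp, log axis) against normalized tags in iQNP (mean of both antibodies, per 10000000 tags). Dark points have a TAP site within 50 bp, pale points have none, and dotted lines mark 10 and 100 kb. The 3 promoter-TSS sites stand at the left, and tags above 40 occur both at the Stmn3 start and 115 kb from Map2.

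The antibodies did not rank all sites alike. In iQNP the homemade mix gave more tags than the commercial antibody at 8 of the 35 sites (22.9%; 16.6% of all): Map1lc3b, Dync1h1, Kif3b, Myom2, Myoz1, the Tubgcp5 promoter, the intronic Tubb3 site and the intronic Myo3b site. The Tubb3 and Myo3b sites had a TAP partner and the other 6 had none. Over all iQNP sites, 18 of 294 of this kind were paired (6.12%), against 49.8% of the 1481 others. Sites annotated to a CpG island were 5 of the 35 (14.3%; 4.68% of all): Map2, Map1lc3b, Dync1h1, the upstream Tubb3 site and Myoz1. Map2 was the 1 paired site of the 5, where 26 of all 83 CpG island sites were paired (31.3%). Whether the antibody or the CpG island has a part in which sites were called in TAP was not tested.

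Other genes of the neuronal cytoskeleton were read from a list of 80 that the name rule does not reach. Of these, 10 had an iQNP site (13 sites, 7 paired, against 42.6% of all iQNP sites) and 6 a TAP site. The edgeR test called 3 of the 7 paired sites higher in iQNP, against 68.4% of all shared sites, and none lower. They were a site 5.2 kb upstream of Crmp1, which mediates semaphorin signals in axons (log2 change 1.48, edgeR adjusted p = 0.00143), and sites of Mapk8ip1, a kinesin cargo scaffold, and Basp1, a growth cone protein. Crmp1 had 3 sites within 17.4 kb, the strongest at 55.7 and 32.9 normalized tags in iQNP, compared with 29.6 and 22.2 in TAP (log2 change 0.77, edgeR adjusted p = 0.0854). The remaining genes with a site were Pafah1b1, Cdk5r1, Cdk5r2, Dctn2, Clip2, Add2 and Tppp. Pafah1b1, which encodes the dynein regulator LIS1, had 61.7 and 44.7 in iQNP, compared with 38.1 and 33.7 in TAP, more than any of the 35 sites, at 138 kb from its start.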

How the data were processed

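REST ChIP libraries of HCN cells (iQNP and TAP, 2 each, 1 per antibody) and 1 input each were sequenced by the authors, aligned to rn4 with Bowtie2 and called with HOMER against the input (p at most 1e-04); peaks of both antibodies within 50 bp were merged and only those called with both deposited (versions are not given in the sources used here). The deposited columns hold tag counts, normalized tags (a signal scaled to 10000000 tags), input tags, fold ratios over input and local background, a p-value against input, and a fraction of tags on the expected strand. Gene names and positions came from the annotation table of the study, joined by site.

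Depth was worked back from counts and normalized tags. Sites were paired one to one, closest first, with centres within 50 bp. Total tags at the 756 shared sites were tested with edgeR 4.0.16 (quasi-likelihood, depths as library sizes, Benjamini-Hochberg over all 756, called under 0.05) in R 4.3.3. On simulated data with the depths of this comparison, 200 of 756 sites were changed by 2 on the log2 scale. Equal numbers went up and down, and the other sites were left unchanged. Of these 200, 100% were recovered, with 2.44% false calls. Neither a shift of most sites in 1 direction, as in the real data, nor a difference between antibodies was simulated. The false calls under such a shift were therefore not measured. The log2 changes of the members were all smaller than 2, from 0.34 at a Nefh site to 1.43 at Kif2a. Recovery at these sizes was not tested. An exact permutation of 2 against 2 libraries cannot go below p = 0.333 (two-sided). The alternatives were TMM, DESeq2 1.42.0, an antibody block, at least 20 tags in every library, other pairing distances and each library left out. A replicate number marks the same antibody in both conditions, from the labels, which makes a shared reagent and not a shared culture; with 2 pairs, the deviations of same-numbered libraries correlated at 0.05 across sites. Sites called in a condition only have no tag number from the other and entered no test. Intervals cover counting error only.

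The gene families, the list of 80 other genes and the tests were chosen with earlier results of these data known. Every member gene is named. The neuronal groups are given with the value of each library, and the remaining members by ranges and where a result turns on them.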

Additional observations from a re-analysis of the deposited data

How the results depend on the processing

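The share of paired sites held under every pairing distance, stricter p and fold limit and shorter gene list tried, with 14 to 17 paired sites. The median log2 ratio was -0.24 under TMM and 0.38 by fold over input, and 0.75 to 1.08 with replicates left out. The count of 8 sites higher in iQNP (68.4% of all shared sites) became 0 under TMM (5.16% of all). Under DESeq2 with its own size factors it was 0, and 6 of the 17 had no adjusted p. Of all 756 shared sites, that fit called 3 higher and gave 308 no adjusted p. With the antibody as a replicate block the count was 16 (94.8% of all). With single libraries left out, the members' median log2 change was 0.73 to 0.99. With the replicate block no call was lost and 8 were gained. A lone library was assumed to vary like those of the other condition. Median normalized tags in iQNP were 18.8 to 20.2 with single antibodies, and the median fold over input 25.1; in TAP they were 17.5 to 17.9, with a median fold of 17.4, and 17.5 without Sptlc3, Sptssb, Myoc and Map1lc3b. The 16 sites within 10 kb of a TSS (45.7%; 34.6% of all iQNP sites) became 3 within 1 kb (8.57%; 19.4% of all). Within 100 kb they were 28 (80.0%; 67.8% of all). The members' share was thus above that of all sites at 10 and 100 kb and below it at 1 kb. The 10 other genes became 6 within 10 kb.

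TMM centres the shared sites, and under it 13 of the 17 members lay below 0, as did 382 of all 756 shared sites. The 13 were Ina (upstream and intronic, -0.52 and -0.34), Map1b (-0.25), Map2 (-0.41), Myo3b (-0.13 and -0.33), Nefh (-0.56 and -0.71), Nefm (-0.060), Sptlc3 (-0.24), Stmn2 (-0.17), Tubb3 (-0.27) and Ank1 (-0.032). The upstream Ina site ranged from -0.019 (without iQNP replicate 1) to 0.95 (without iQNP replicate 2). A shift of all sites between the conditions and a change at these sites cannot be told apart on this scale, and the members' direction depends on it.

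The sites held 16 to 146 tags per library, and a site missing from TAP may have fallen short of the call.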
